A study of Phlebiopsis gigantea with 8 samples.

Results

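Genes named as lipases or as a carotenoid ester lipase were examined in *Phlebiopsis gigantea*, a white-rot basidiomycete that colonizes freshly cut conifer wood. They were the 9 gene models whose putative function in the deposited table is lipase, Lipase class 3 or Lipase 4, and the carotenoid ester lipase Phlgi1_74623, which makes 10 of 11892 gene models. Transcripts were measured by RNA-seq in mycelium from 8 cultures in 250 ml of basal salts, all taken on day 5. In NELP, 3 cultures grew on ground loblolly pine that had been wetted with acetone and dried but not extracted. In ELP, 3 cultures grew on the same ground wood after prolonged Soxhlet extraction with acetone, and in Glc, 2 cultures grew on glucose. The comparison of NELP with ELP asks which genes respond to the compounds that acetone removes. Each comparison with Glc asks which genes differ between wood and glucose as sole carbon source. There, the presence of wood and the absence of glucose cannot be told apart.

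Pine wood stores fat as triglycerides, in which glycerol carries fatty acids on ester bonds, and this fat is part of the pitch that acetone extracts along with resin acids and free fatty acids. Lipases cut the ester bonds and release fatty acids and glycerol. Glycerol then enters the cell through a facilitator and is phosphorylated by glycerol kinase, while fatty acids are bound to coenzyme A, shortened by β-oxidation and fed into the glyoxylate shunt as acetyl-CoA. Carotenoid ester lipase is a name taken from the basidiomycete *Pleurotus sapidus*, whose enzyme splits fatty acid esters of xanthophylls.

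The members belong to several protein families by the InterPro domain in the deposited table. Phlgi1_19028, Phlgi1_61329, Phlgi1_36659, Phlgi1_129172, Phlgi1_105650 and Phlgi1_20095, listed in the table under the protein names '19028', '61329', '36659', '129172', '105650' and '20095', hold the lipase class 3 domain, the family of the secreted triglyceride lipase of *Rhizomucor miehei*. Phlgi1_32096 and Phlgi1_99110, both called Lipase 4, and the carotenoid ester lipase Phlgi1_74623 hold the carboxylesterase type B domain, the family of the *Candida rugosa* lipases and of the cholinesterases. Phlgi1_120288 holds the lipase GDSL domain, found in many esterases with varied substrates. Apart from these annotations, no substrate is known here for any of the 10 proteins.

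Levels are the authors' RPKM, read numbers corrected for the length of each gene and the size of each library, so that they can be compared between genes. The depth in reads is not known. Steps between the lowest RPKM values gave approximate depths, relative to the first NELP library, of 1 to 1.79 for NELP, 0.583 to 0.705 for ELP, and 0.773 and 1.38 for Glc. The 2 Glc libraries were the least alike. The median gene had a standard deviation of 0.51 on the log2 scale in Glc, against 0.19 in NELP and 0.22 in ELP. Tests were limma's moderated test on log2(RPKM + 0.5) in 1 fit over the 3 media, with p-values adjusted over 10999 genes, and those under an adjusted p of 0.05 are said to pass. Of the 10 members, 9 reached the mean of 1 RPKM needed for testing. Where 1 Glc library was left out, the remaining one gives no spread of its own and is assumed to vary like the wood libraries, so p-values of such fits are not comparable with the others and only the fold changes are given. Fold changes are on this log2 scale, which understates those of low genes. RNA came from whole mycelium, so fewer cells that express a gene and less RNA per cell cannot be told apart.

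Transcripts of 2 class 3 lipases, 1 Lipase 4 and the carotenoid ester lipase were higher in both wood media than in Glc. Those of the other Lipase 4 were higher in ELP. In NELP against Glc, 4 of the 9 tested members rose and 1 fell, while 29.5% of all tested genes rose and 3.67% fell. In ELP against Glc, 5 rose and 1 fell, against 37.3% and 5.14% of all genes. The median log2 fold change was 1.59 for the members and 0.54 for all genes in NELP, and 1.53 and 0.60 in ELP. Both comparisons share the Glc libraries. When each library was rescaled by its median ratio, the median of all genes became −0.03 in both, and the members still gave 4 higher and 1 lower for NELP (6.61% and 6.96% of all genes) and 5 higher and 1 lower for ELP (10.8% and 11.4%). When each medium was given its own spread, which widens that of Glc, 3 members rose on NELP (0.682% of all genes, with 0.209% lower) and 1 on ELP (0.482%, with 0.164% lower), and 0 fell.

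**Figure D1:**
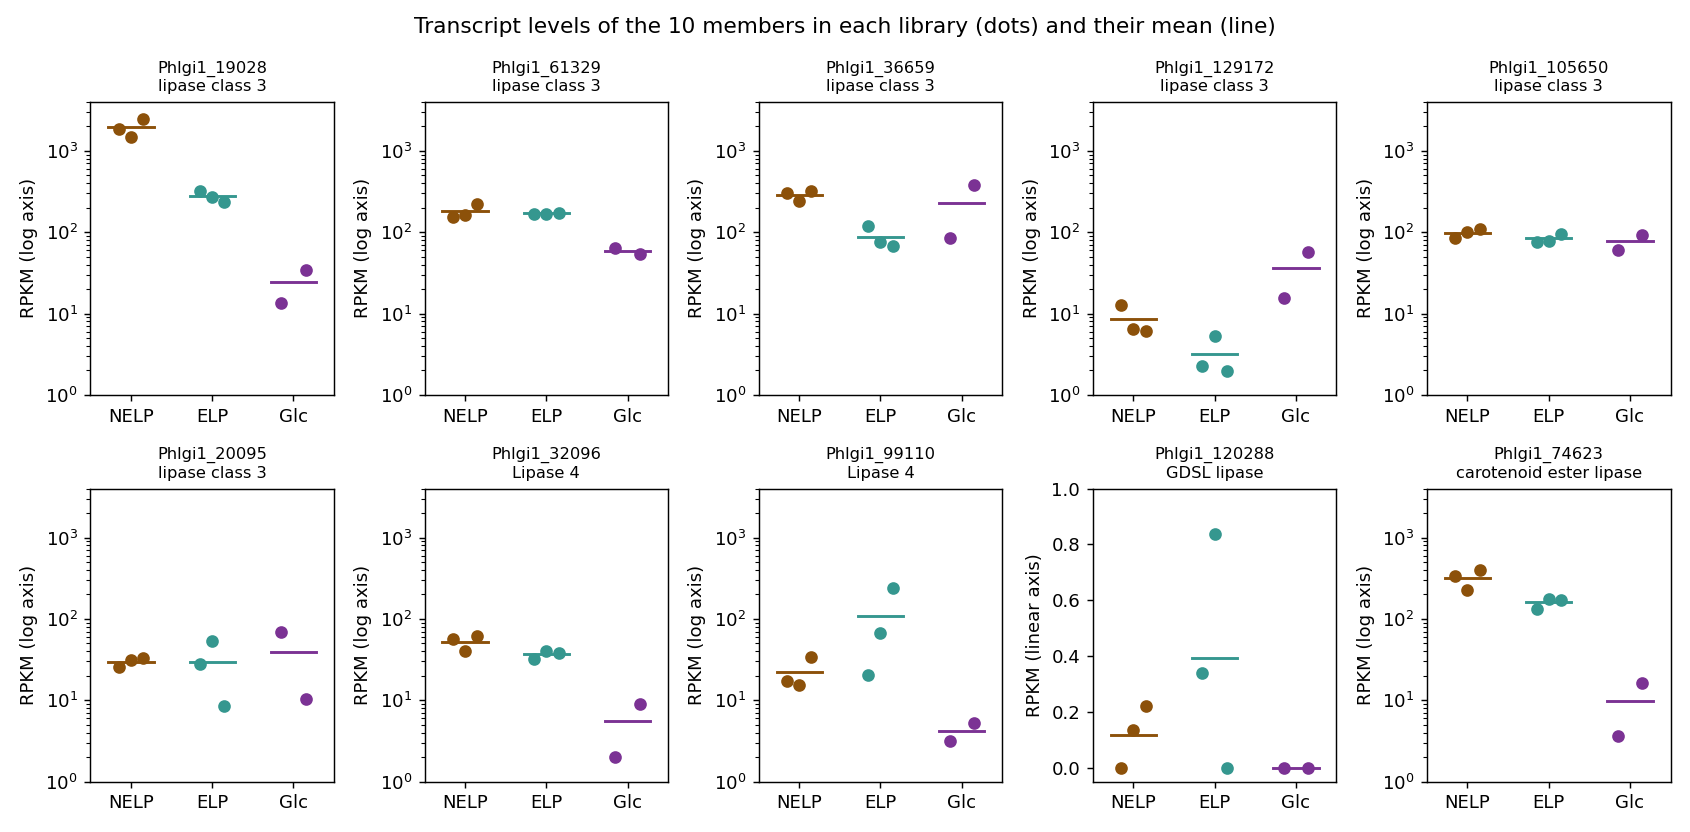
RPKM of each of the 10 members in each library (dots) with the mean per medium (lines), on a log axis except for Phlgi1_120288, which has a linear axis. Phlgi1_19028 runs from 1477 to 2480 RPKM in NELP, 233 to 324 in ELP and 13.6 to 34.7 in Glc, while Phlgi1_105650 lies between 61.0 and 109 in every library.

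The class 3 lipase Phlgi1_19028 was by mean level the most abundant member in both wood media. In ELP 3 alone, Phlgi1_99110 was higher, at 240.2 against 233 RPKM. The level of Phlgi1_19028 was 1878, 1477 and 2480 RPKM on NELP, 324, 271 and 233 on ELP, and 13.6 and 34.7 on Glc. The 3 media did not overlap, with every NELP library above every ELP library and both Glc libraries lowest. Mean levels were 1945 ± 505 RPKM in NELP, 276 ± 45.7 in ELP (SD, n = 3 each) and 24.1 ± 15.0 in Glc (SD, n = 2). By mean level it ranked 23 among all gene models in NELP, 412 in ELP and 4476 in Glc.

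Phlgi1_19028 rose on NELP over Glc with a log2 fold change of 6.42 (SE 0.41), an 80.6-fold ratio of means (adjusted p = 0.00026). In ELP it rose by 3.62 (SE 0.41), an 11.4-fold ratio (adjusted p = 0.0021). Without Glc 1 the values were 5.76 and 2.96, and without Glc 2 they were 7.08 and 4.29. With a separate spread for each medium the ELP value had an adjusted p = 0.052, the only one of 17 alternatives in which it missed. Between the wood media, transcript accumulation was 7.05-fold higher in NELP by the means, a log2 fold change of 2.80 (SE 0.36, 95% interval 1.96 to 3.64). This missed the threshold in the fit over the 3 media (adjusted p = 0.058). It passed in a fit of NELP and ELP libraries without Glc (adjusted p = 0.0055), where the spread of Glc does not enter, and ranged from 0.0020 to 0.36 over the 17 alternatives, the high end when 1 wood library was left out.

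Phlgi1_61329, the next class 3 lipase, was raised on wood to about the same level with and without extractives. It measured 156, 163 and 222 RPKM on NELP, 169, 166 and 174 on ELP, and 64.4 and 53.4 on Glc. All wood libraries stood above both Glc libraries, and those of NELP and ELP overlapped. Its log2 fold change was 1.59 for NELP (SE 0.22, adjusted p = 0.0051) and 1.53 for ELP (SE 0.22, adjusted p = 0.0037). With a separate spread for each medium neither passed (adjusted p = 0.13 and 0.11). NELP against ELP gave 0.07 with a 95% interval from −0.40 to 0.53 (adjusted p = 0.91).

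Phlgi1_36659 was the member whose Glc libraries disagreed most in RPKM. It had 304, 240 and 319 RPKM on NELP, 121, 76.2 and 68.5 on ELP, and 84.7 and 376 on Glc. Every NELP library exceeded every ELP library, while Glc 1 lay within the ELP range and Glc 2 above the NELP range. Its log2 fold change was 0.67 in NELP against Glc (SE 0.57, adjusted p = 0.37) and −1.05 in ELP against Glc (SE 0.57, adjusted p = 0.17). Without Glc 1 these values were −0.40 and −2.13, and without Glc 2 they were 1.75 and 0.018, so their sign depends on the Glc library.
NELP exceeded ELP by 1.73 (SE 0.51, 95% interval 0.55 to 2.91), which did not pass over the 3 media (adjusted p = 0.20) and did in the fit without Glc (adjusted p = 0.013).

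Phlgi1_129172 was the class 3 lipase with more transcript on glucose. Its level was 12.9, 6.49 and 6.04 RPKM on NELP, 2.29, 5.25 and 1.96 on ELP, and 15.7 and 57.4 on Glc. Both Glc libraries were above all wood libraries, and Glc 2 was well above Glc 1. It fell in ELP with a log2 fold change of −3.17 (SE 0.61, adjusted p = 0.0070), a call lost with a separate spread for each medium (adjusted p = 0.12). In NELP the value was −1.85 (SE 0.61) with an adjusted p = 0.049, and leaving out any 1 of the 6 wood libraries ended the call. Over all 17 alternatives, those with 1 Glc library included, the adjusted p was 0.012 to 0.33 and 5 passed. Without Glc 2 the value was −0.93 and without Glc 1 −2.77. NELP against ELP gave 1.32 (95% interval 0.06 to 2.58, adjusted p = 0.29), and NELP libraries are all deeper than ELP libraries.

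The remaining class 3 lipases, Phlgi1_105650 and Phlgi1_20095, passed in no comparison. Phlgi1_105650 was the steadiest member, with 86.0, 99.8 and 109 RPKM on NELP, 76.7, 79.0 and 95.3 on ELP, and 61.0 and 92.9 on Glc. Its 95% intervals ran from −0.20 to 0.95 in NELP against Glc, from −0.43 to 0.72 in ELP against Glc and from −0.28 to 0.75 in NELP against ELP. After rescaling, the values against Glc changed sign to −0.22 and −0.51, and without Glc 2 the NELP value was 0.68.
Phlgi1_20095 had 25.5, 31.4 and 32.8 RPKM on NELP, 27.7, 53.5 and 8.39 on ELP, and 68.2 and 10.3 on Glc. Its NELP libraries were close together, and those of ELP and Glc were not. The standard deviation on the log2 scale was 0.19 for NELP, 1.32 for ELP and 1.89 for Glc. Its 95% intervals spanned from −1.90 to 2.20 in NELP against Glc and from −2.24 to 1.85 in ELP against Glc, so changes of up to about this size in either direction are left undecided.

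Among the carboxylesterase type B members, the carotenoid ester lipase Phlgi1_74623 was the most abundant. It measured 338, 224 and 404 RPKM on NELP, 133, 177 and 171 on ELP, and 3.68 and 16.2 on Glc. The media did not overlap and stood in the same order as for Phlgi1_19028. Mean levels were 322 ± 91.2 RPKM in NELP, 161 ± 23.8 in ELP and 9.94 ± 8.85 in Glc (SD). The log2 fold change was 5.23 in NELP (SE 0.54, adjusted p = 0.0021) and 4.26 in ELP (SE 0.54, adjusted p = 0.0027), and both passed in all 17 alternatives. Without Glc 1 these were 4.23 and 3.26, and without Glc 2 they were 6.23 and 5.26. NELP exceeded ELP by 0.97 (SE 0.48, 95% interval −0.15 to 2.09), which did not pass over the 3 media (adjusted p = 0.36) and was close to the threshold in the fit without Glc (adjusted p = 0.048).

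The Lipase 4 gene Phlgi1_32096 followed the carotenoid ester lipase at a lower level. It had 56.6, 40.6 and 61.0 RPKM on NELP, 32.2, 40.1 and 38.0 on ELP, and 2.01 and 9.09 on Glc. Its log2 fold change was 3.42 for NELP (SE 0.50, adjusted p = 0.0057) and 2.92 for ELP (SE 0.50, adjusted p = 0.0055). Without Glc 1 the values were 2.45 and 1.95, and without Glc 2 they were 4.39 and 3.89. With a separate spread for each medium the ELP value missed (adjusted p = 0.067). NELP against ELP gave 0.50 (95% interval −0.54 to 1.54, adjusted p = 0.62).

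The other Lipase 4 gene, Phlgi1_99110, was the only tested member with a higher mean in ELP than in NELP. Its level was 17.1, 15.4 and 34.5 RPKM on NELP, 20.4, 68.0 and 240.2 on ELP, and 3.13 and 5.27 on Glc. ELP libraries differed over a wide range, and the lowest of them lay within the NELP range. In ELP it rose, with a log2 fold change of 3.94 (SE 0.89, adjusted p = 0.012), or 3.04 without ELP 3 (adjusted p = 0.017) and 4.81 without ELP 1, and this was lost with a separate spread for each medium (adjusted p = 0.24). In NELP the value was 2.22 (SE 0.89, adjusted p = 0.087), and 3 of 17 alternatives passed. NELP against ELP was −1.71 (95% interval −3.56 to 0.13, adjusted p = 0.33).

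Phlgi1_120288, the GDSL lipase, was barely detected. It was listed at 0, 0.134 and 0.221 RPKM in NELP, 0.338, 0.838 and 0 in ELP, and 0 in both Glc libraries. Scaled by the relative depths, the values above 0 came to 1, 2, 1 and 3 steps of the lowest value, so no comparison can be drawn from them. It is the member left out of the tests.

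**Figure D2:**
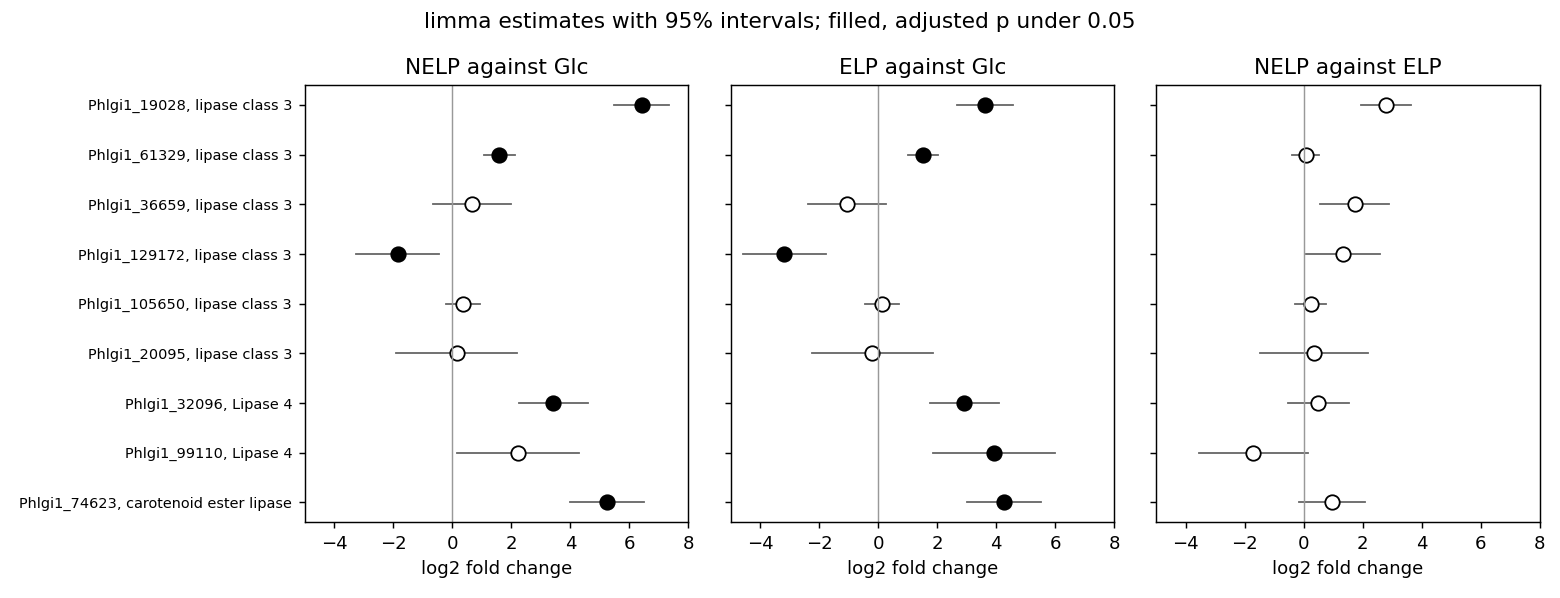
limma log2 fold change of the 9 tested members with 95% intervals for each pair of media, filled where the adjusted p was under 0.05. Phlgi1_19028 has the largest value in NELP against Glc (6.42) and in NELP against ELP (2.80), where no member is filled.

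Between NELP and ELP, limma called 0 of the 9 members over the 3 media, and 0.00909% of all genes were higher and 0.00% lower, which is 1 gene in 10999. At an unadjusted p under 0.05 there were 3 members, Phlgi1_19028, Phlgi1_36659 and Phlgi1_129172, beside 1798 of all 10999 tested genes. In the fit without Glc, 3 members were higher in NELP (Phlgi1_19028, Phlgi1_36659 and Phlgi1_74623) and none lower, beside 6.12% of all genes higher and 4.28% lower. NELP libraries lay entirely above ELP libraries for 5 members and entirely below for 0, against 16.7% and 22.1% of all tested genes. The 5 were Phlgi1_19028, Phlgi1_36659, Phlgi1_129172, Phlgi1_32096 and Phlgi1_74623. With 3 libraries against 3, an exact permutation test of a single gene cannot give a p below 0.10.

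The make-up of the lipase transcripts differed by medium. The members summed to 2947 ± 688 RPKM in NELP, 958 ± 64.6 in ELP (SD, n = 3 each) and 486 ± 240 in Glc (SD, n = 2). Phlgi1_19028 made up 65.8 ± 1.69% of this sum in NELP, 29.1 ± 6.57% in ELP and 4.79 ± 0.72% in Glc. In Glc the leading member was Phlgi1_36659, with 26.8 and 57.4% of the sum in the 2 libraries, against 9.90 ± 1.05% in NELP and 9.36 ± 3.50% in ELP.

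The carotenoid ester lipase held 10.8 ± 1.02% of the sum in NELP, 16.7 ± 2.10% in ELP and 1.82 ± 0.93% in Glc. Phlgi1_61329 held 6.18 ± 0.85%, 17.8 ± 0.85% and 14.2 ± 8.63%. Phlgi1_99110 held 2.24, 7.25 and 23.3% in the ELP libraries and under 1% in every other library. All class 3 lipases together held 86.6 ± 1.09% in NELP, 68.4 ± 11.6% in ELP and 96.3 ± 1.32% in Glc, so the type B share was largest in ELP. These shares were not tested.

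**Figure D3:**
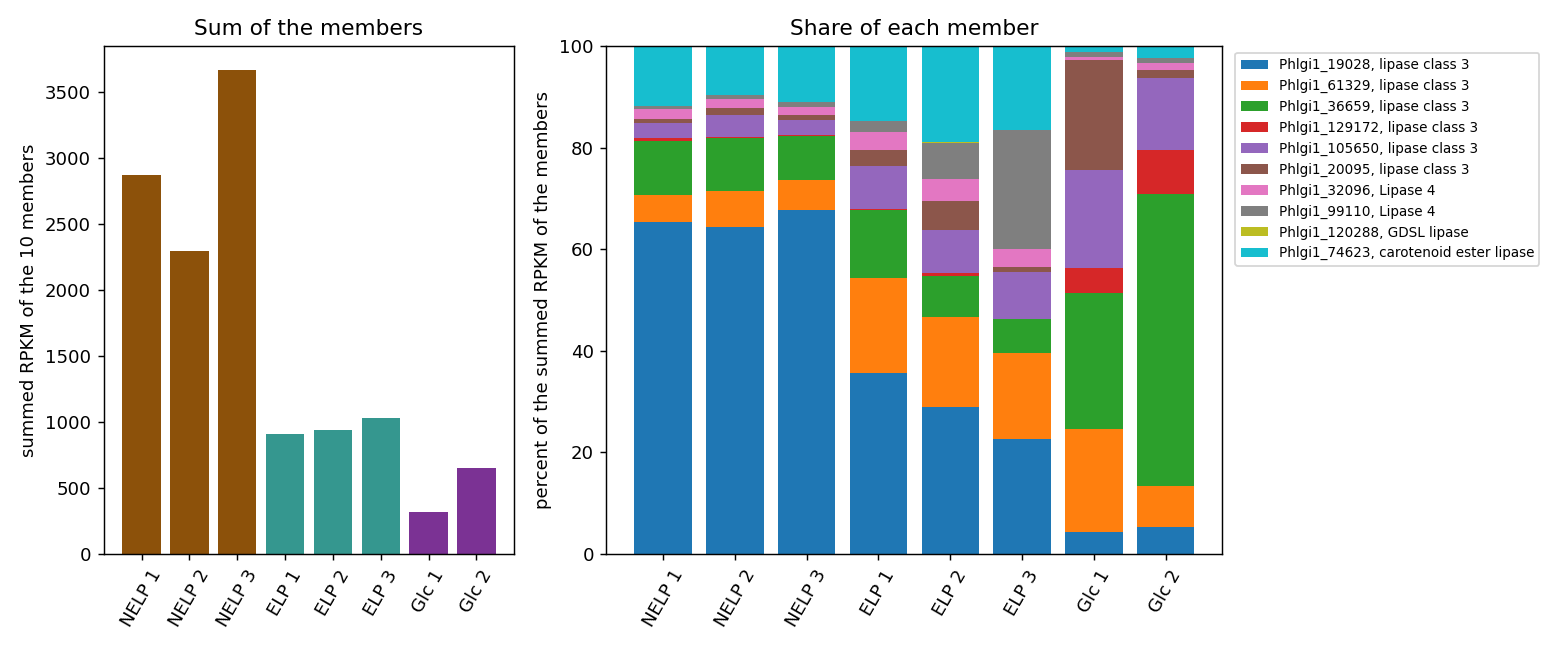
Left, summed RPKM of the 10 members per library. Right, percent of that sum held by each member. Phlgi1_19028 takes 64.3 to 67.6% of the sum in NELP, and the sum is 2297 to 3668 RPKM there against 907 to 1031 in ELP.

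Over the 8 libraries, the level of Phlgi1_74623 followed that of Phlgi1_32096 most closely of 1012 named genes that averaged 10 RPKM or more (Pearson r = 0.99 on the log2 scale, n = 8). The next were the GH28 polygalacturonase family gene Phlgi1_121738, the deacetylase Phlgi1_127294, Phlgi1_109641, called Mucin-2, and the transporter Phlgi1_27714 (r from 0.9867 to 0.9905). Nearest to Phlgi1_19028 were a GH15 glucoamylase, Phlgi1_128120, which releases glucose from starch, a malate dehydrogenase, Phlgi1_19452, and a GH18 chitinase, Phlgi1_88507 (r from 0.9873 to 0.9914). A GT8 glycosyltransferase, Phlgi1_28840, and a syntaxin of vesicle transport, Phlgi1_97337, followed (r = 0.9805 and 0.9748). Among members, Phlgi1_74623 stood 27th by this measure, with r = 0.95.

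The glucoamylase Phlgi1_128120 averaged 172 RPKM in NELP, 49.5 in ELP and 5.97 in Glc, and the chitinase Phlgi1_88507 averaged 414, 90.2 and 21.9 RPKM. Both thus had the NELP, ELP, Glc order of the lipase. Phlgi1_129172 was most like genes that were high on glucose, namely the aspartic proteinase Phlgi1_85373, the chitinase Phlgi1_17696, the peptidase Phlgi1_460435, the high-affinity glucose transporter Phlgi1_93500 and Phlgi1_82504, called priA (r from 0.92 to 0.95). The 8 points share 3 media, so these values mostly rank genes by their difference between media.

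Other genes that act on lipids and their products were followed in a list of 18, all of them tested. They were chosen with earlier results of these data known, so their counts beside those of all genes only describe the list. In NELP against Glc 12 rose and 0 fell, where 29.5% of all genes rose, and in ELP against Glc 10 rose and 0 fell, where 37.3% rose, with medians of 1.62 and 1.32 on the log2 scale beside 0.54 and 0.60 for all genes. After rescaling, 7 rose in NELP (6.61% of all genes), and 5 rose and 1, glycerol kinase, fell in ELP (10.8% and 11.4%). With a separate spread for each medium, 1 rose in each (0.682% and 0.482% of all genes). Between NELP and ELP, limma called 0 of 18, with 3 at an unadjusted p under 0.05, beside 1798 of all 10999 tested genes. Only the glycerol facilitator and glycerol kinase were higher in NELP in the fit without Glc, where 6.12% of all genes were.

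All 4 other lipid ester hydrolases rose in both wood media. The lipase/acylhydrolase Phlgi1_106726 had 55.7, 52.0 and 77.0 RPKM on NELP, 61.6, 51.0 and 51.0 on ELP, and 6.74 and 10.8 on Glc. Its log2 fold change was 2.76 in NELP (adjusted p = 0.0018) and 2.60 in ELP (adjusted p = 0.0020). The phospholipases Phlgi1_75578 and Phlgi1_96565, which act on membrane lipids, gave 1.90 and 1.95 in NELP and 1.34 and 2.34 in ELP. The ELP call of Phlgi1_75578 was lost after rescaling. Phlgi1_114837, with a lysophospholipase domain, gave 1.86 and 1.81. None of the 4 passed between NELP and ELP, where the largest value was 0.56 for Phlgi1_75578 (adjusted p = 0.36).

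Of the 3 glycerol genes, 2 rose in NELP and 1 in ELP. The facilitator Phlgi1_99331, the channel by which glycerol enters, had 2432, 2260 and 2949 RPKM on NELP, 998, 1326 and 1408 on ELP, and 38.9 and 1229 on Glc. NELP stood above the other media, and Glc 1 lay far below Glc 2. Its log2 fold change was 3.52 in NELP against Glc (SE 1.17, adjusted p = 0.0504) and 2.48 in ELP (adjusted p = 0.12). Without Glc 1 these were 1.04 and 0.0014, and without Glc 2 they were 6.01 and 4.97.
Glycerol kinase, Phlgi1_106139, had 591, 543 and 542 RPKM on NELP, 266, 298 and 298 on ELP, and 261 and 363 on Glc. It rose in NELP by 0.86 (SE 0.21, adjusted p = 0.022), a call that rescaling ended (log2 fold change 0.26, adjusted p = 0.38), and was −0.10 in ELP (adjusted p = 0.72), where rescaling gave a fall of −0.76 (adjusted p = 0.028). NELP exceeded ELP by 0.96 (SE 0.19, adjusted p = 0.097, and 0.013 in the fit without Glc). Glycerol-3-phosphate dehydrogenase, Phlgi1_90548, the next enzyme, rose in both media by 1.97 and 1.66, and rescaling ended its ELP call.

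Of 8 genes of fatty acid activation, oxidation and desaturation, 4 rose in both media and none fell. These were the desaturases Phlgi1_100083 (2.08 in NELP and 2.55 in ELP) and Phlgi1_115799 (2.95 and 2.36), which insert double bonds and so serve synthesis rather than breakdown, the long chain fatty acid CoA ligase Phlgi1_126556 (1.95 and 1.52) and the β-ketothiolase Phlgi1_27649 (1.38 and 1.30). Rescaling ended the calls of Phlgi1_126556 and Phlgi1_27649 in both media, while those of the desaturases held. The CoA ligases Phlgi1_107548 and Phlgi1_89325, the peroxisomal acyl-CoA oxidase Phlgi1_30390 and the β-ketothiolase Phlgi1_130767 did not pass. The acyl-CoA oxidase, which starts peroxisomal β-oxidation, had 29.5, 30.6 and 28.6 RPKM on NELP, 28.3, 38.5 and 53.0 on ELP, and 10.7 and 37.3 on Glc.

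In the glyoxylate shunt, isocitrate lyase Phlgi1_93159 rose in NELP by 1.27 (adjusted p = 0.026) and gave 0.64 in ELP (adjusted p = 0.15). The malate synthase domain gene Phlgi1_27815 rose in NELP by 0.90 (adjusted p = 0.016) and gave 0.58 in ELP (adjusted p = 0.0502). Phlgi1_21482, with an isocitrate lyase family domain, gave 0.43 in NELP (adjusted p = 0.12) and rose in ELP by 0.59 (adjusted p = 0.040), and after rescaling its values became −0.17 and −0.067. Rescaling also ended the NELP calls of Phlgi1_93159 (0.67, adjusted p = 0.27) and Phlgi1_27815 (0.30, adjusted p = 0.40), and turned their ELP values to −0.019 and −0.081. Of 17 alternatives, those NELP calls held in 9 and 12.

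**Figure D4:**
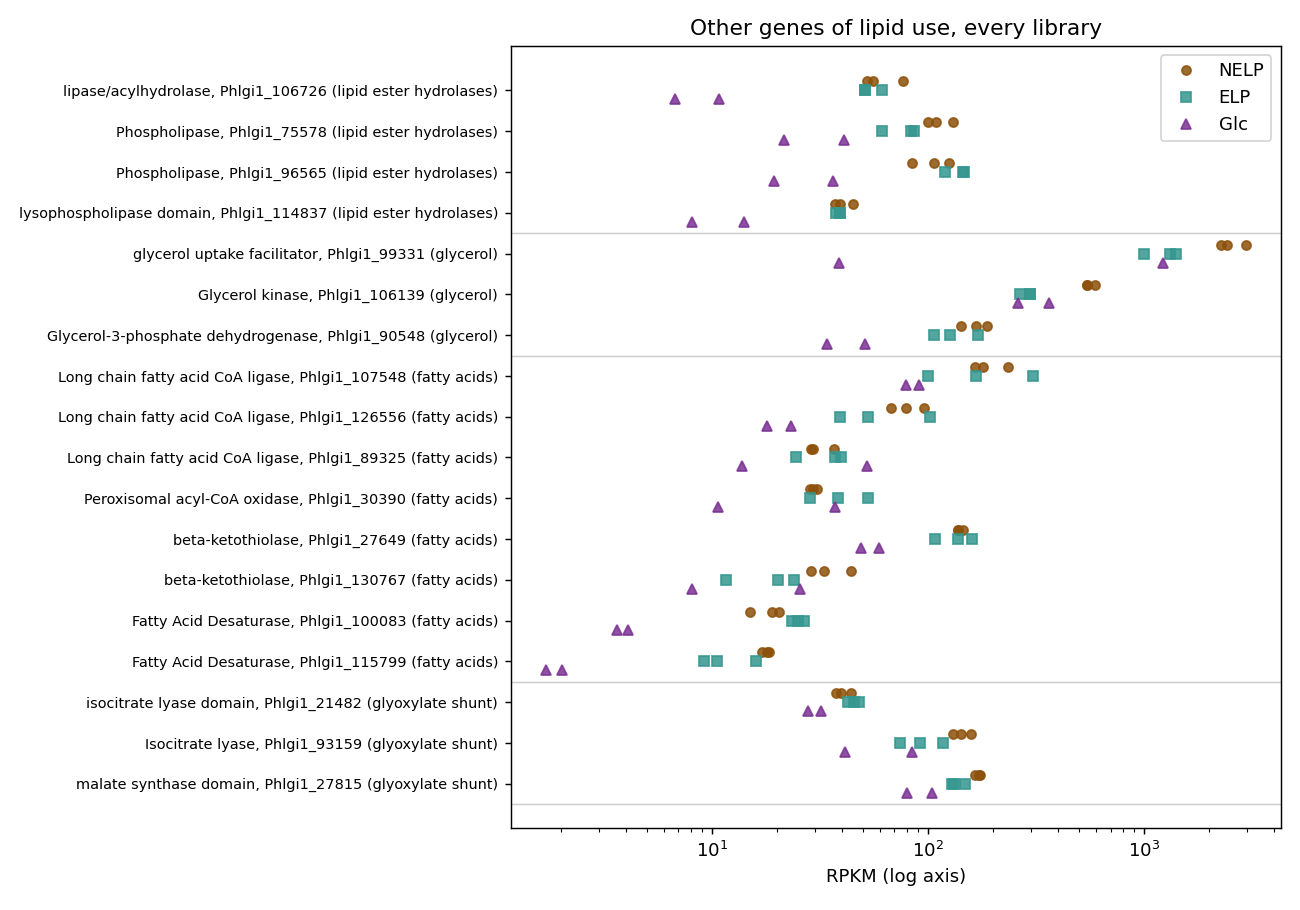
RPKM in every library (log axis) of the 18 other genes of lipid use, ordered by group, with circles for NELP, squares for ELP and triangles for Glc. The 4 lipid ester hydrolases at the top have all Glc libraries below all wood libraries, and glycerol kinase has 542 to 591 RPKM in NELP against 266 to 298 in ELP.

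Beside the members, 28 gene models carry one of the 3 domains, among them Phlgi1_106726 of the list above. In NELP against Glc 10 of them rose and 0 fell, and in ELP against Glc 11 rose and 2 fell, shares near those of all genes that rose (29.5% and 37.3%). After rescaling, 5 rose and 3 fell on NELP (6.61% and 6.96% of all genes), and 6 rose and 3 fell on ELP (10.8% and 11.4%), and with a separate spread for each medium 0 did either. The 6 other class 3 models gave 0 higher in either medium and 2 lower in ELP, with median log2 fold changes of 0.10 and −0.03. The 14 other type B models gave 4 higher in NELP and 5 in ELP, and the 8 other GDSL models gave 6 in each. Those 6 were the same models in both media. They include Phlgi1_106726 and models named after the carbohydrate esterase families CE12 and CE16 and the glycoside hydrolase family GH16.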

How the data were processed

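The authors purified poly-A RNA from 8 cultures, 1 library each, prepared TruSeq libraries and sequenced them on an Illumina HiSeq2000. CASAVA 1.8.2 is named in the submitters' processing notes. Reads were mapped with SeqNGen, and the authors deposited RPKM values per gene, computed in Qseq (DNAStar). The sources used here do not give how reads that fit several genes, or the strand, were handled, and paralogs, such as the type B genes, may share reads. Nor do they give read totals. No value column was left unused (0).

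Members were found by protein number. The members and lists were chosen with earlier results of these data known. Of 11892 models, 11891 have values. limma 3.58.1 in R 4.3.3 was fitted to log2(RPKM + 0.5) over the 3 media, two-sided, for the 10999 genes that averaged 1 RPKM or more over 8 libraries. P-values were adjusted by Benjamini and Hochberg over these genes. They measure the spread between 2 or 3 cultures a medium. The fit was tested on simulated data in which each gene had the same spread in every medium. That test therefore does not cover the wider spread of Glc.

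Named genes are the members, the 18 list genes, the 5 named genes most like Phlgi1_19028, Phlgi1_74623 and Phlgi1_129172 by Pearson r, and the nearest gene model on each side of each member. Neighbours came from an NCBI RefSeq gene table of assembly Phlgi1, which matched 11824 IDs by locus tag and whose coordinates are not printed. Alternatives were a pseudocount of 1 or 0.1, no filter, a mean of at least 10 RPKM, rescaling by median ratio, only the media compared, a spread per medium, a prior variance that follows the mean, a replicate block, and leaving out each library.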

Additional observations from a re-analysis of the deposited data

Results flagged for a closer look

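The class 3 lipase Phlgi1_36659 had every NELP library above the log2 mean of Glc and every ELP library below it. The change against Glc was 0.67 in NELP and −1.05 in ELP, and the difference between them, which is NELP against ELP, was 1.73 on the log2 scale. The test of that difference by limma over the 3 media gave an adjusted p = 0.20. Glycerol kinase Phlgi1_106139 met the same condition, with 0.86 in NELP, −0.10 in ELP and a difference of 0.96 (adjusted p = 0.097). In both genes the Glc mean rests on 2 libraries, and in Phlgi1_36659 these were 84.7 and 376 RPKM.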

How the results depend on the processing

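Phlgi1_19028 and Phlgi1_74623 in NELP against Glc, Phlgi1_74623 in ELP against Glc and Phlgi1_32096 in NELP against Glc passed in all 17 alternatives. The labels do not say whether equal replicate numbers pair cultures. Deviations of equal numbers in NELP and ELP correlated at 0.40, −0.15 and 0.50, which cannot decide it, as unequal numbers were not compared. With the replicate block, 0 members fell in NELP against Glc (against 1 without it), 0 other domain models fell in ELP against Glc (against 2 without it), and Phlgi1_20095 gave 0.13 in ELP against Glc. The count of members that fell in NELP against Glc was also 0 with no filter, a pseudocount of 0.1, only the media compared and a spread per medium, and with any wood library left out. With a spread per medium, 1 member rose and 0 fell in ELP against Glc, 1 list gene rose in NELP and 1 in ELP, and 0 other domain models rose or fell in either. In NELP against ELP, members higher were 3 with only the media compared, 3 with a spread per medium and 1 with a prior variance following the mean. List genes higher were 2 and 1 in the former fits, and 1 domain model was lower with only the media compared, where 3 and 6 domain models rose and 0 fell in ELP. When a wood library was left out, 1 member was lower in ELP against Glc. In NELP against ELP, 0 members and 0 list genes were then higher and 0 domain models lower. Domain models higher were 4 to 15 in NELP and 7 to 15 in ELP, and lower 0 to 1 and 0 to 3. The cause was not tested. Counts from fits with 1 Glc library are not given here, since such fits assume that this library varies like the wood libraries.

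After rescaling, list genes were 7 higher in NELP, and 5 higher and 1 lower in ELP, and domain models were 5 higher and 3 lower, and 6 higher. Values that changed sign after rescaling were those of Phlgi1_105650 (−0.22 and −0.51), Phlgi1_20095 in NELP (−0.44), Phlgi1_89325 (−0.37 and −0.36), Phlgi1_30390 in NELP (−0.040), Phlgi1_130767 in ELP (−0.35), Phlgi1_21482 (−0.17 and −0.067), Phlgi1_93159 in ELP (−0.019) and Phlgi1_27815 in ELP (−0.081). Phlgi1_21482 had passed in ELP. Leaving out a library changed the sign in NELP against Glc of Phlgi1_36659 (−0.40 to 1.75), Phlgi1_20095 (−1.18 to 1.48), Phlgi1_89325 (−0.72 to 1.16) and Phlgi1_30390 (−0.33 to 1.42). It did so in ELP against Glc for Phlgi1_36659 (−2.13 to 0.018), Phlgi1_105650 (−0.16 to 0.45), Phlgi1_20095 (−1.53 to 1.14), Phlgi1_106139 (−0.34 to 0.14), Phlgi1_89325 (−0.65 to 1.23) and Phlgi1_130767 (−0.51 to 1.09). In NELP against ELP it did so for Phlgi1_61329 (−0.093 to 0.16), Phlgi1_20095 (−0.37 to 0.93), Phlgi1_106726 (−0.013 to 0.27), Phlgi1_107548 (−0.25 to 0.56), Phlgi1_114837 (−0.023 to 0.115), Phlgi1_89325 (−0.28 to 0.058) and Phlgi1_27649 (−0.081 to 0.21). Phlgi1_120288 was too low for any comparison, and depth as a limit of the other genes was not tested.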

Other observations

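The gene annotation used names no scaffold, so neighbours and gaps were read from gene order and start positions. Whether neighbours share a scaffold was not checked further. In the RefSeq gene order of assembly Phlgi1, the class 3 lipases Phlgi1_36659 and Phlgi1_129172 lie near each other, with 3 gene models in the 8988 bp between them. On its other side, 331 bp away, Phlgi1_36659 has a hypothetical gene with a BTB/POZ domain, Phlgi1_75047. This gene had 192, 168 and 177 RPKM on NELP, 45.1, 39.9 and 24.6 on ELP, and 0.792 and 15.5 on Glc, so that its media did not overlap. The first model on the lipase's other side, the MADS-box gene Phlgi1_36660, had 32.1, 40.6 and 31.9 RPKM on NELP, 14.9, 14.1 and 15.0 on ELP, and 17.7 and 63.7 on Glc, with NELP above ELP and the Glc libraries apart, as in Phlgi1_36659. The hypothetical gene beyond Phlgi1_129172, Phlgi1_129173, averaged 3677 RPKM in NELP and 2504 in ELP, and had 273 and 754 in the Glc libraries, whereas Phlgi1_129172 itself was highest in Glc.

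Each Lipase 4 gene lies beside another carboxylesterase type B model without a function name. Phlgi1_78736, 208 bp from Phlgi1_32096, averaged 14.6 RPKM in NELP and 12.3 in ELP, and had 12.5 and 3.58 in the Glc libraries. Phlgi1_82950, 400 bp from Phlgi1_99110, averaged 21.2 RPKM in NELP and 33.4 in ELP, and had 5.61 and 34.8 in the Glc libraries. The carotenoid ester lipase Phlgi1_74623 has a glycoside hydrolase family 37 gene, Phlgi1_129041, 1691 bp away, with 914 RPKM on NELP, 867 on ELP, and 18.0 and 711 on Glc. The gene models on either side of Phlgi1_19028 had under 7 RPKM in every library.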
